A study of Mus musculus with 9 samples.

Results

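Tau is a microtubule-binding protein of axons that is phosphorylated by several kinases and dephosphorylated mainly by protein phosphatase 2A (PP2A). Among the kinases, GSK3 has an alpha and a beta form, each made from its own gene, and CDK5 is active only when bound to an activator such as p35. PP2A is built from a catalytic subunit, a scaffold subunit and 1 of many regulatory subunits, and the last residue of its catalytic subunit can be methylated by a methyltransferase that uses S-adenosylmethionine and demethylated by a methylesterase. S-adenosylmethionine is made from methionine, and its use yields homocysteine. The transcripts of 10 genes of this system were followed in the mouse hippocampus: Mapt (tau), Gsk3a and Gsk3b (both GSK3 forms), Cdk5 and Cdk5r1 (the kinase and its activator p35), Ppp2ca and Ppp2cb (both catalytic subunits), Ppp2r1a (the main scaffold subunit), Lcmt1 (the methyltransferase) and Ppme1 (the methylesterase). They were chosen by gene name and are 10 of 54532 genes listed. Only RNA was measured in these samples, so the values below say nothing of the phosphorylation of tau or the methylation of PP2A.

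Hippocampal RNA was sequenced from 9 samples of C57BL/6 mice, 3 in each of 3 groups. The labels call the animals male and 6 to 8 weeks old when bought, whereas the study's methods give females of 8 weeks. Control mice (Con) received a standard diet, and mice of the HMD group received a high-methionine diet for 8 weeks, or for more than 8 weeks by a second label. Mice of the Bet+HMD group received the same high-methionine diet for 8 weeks and then betaine, a methyl donor that returns homocysteine to methionine, at 2.5% w/v in drinking water for 2 weeks. No group received betaine without the diet, and the labels do not say whether Con and HMD mice were kept for those 2 weeks as well. The labels give HMD as a "genotype", although no group carries an altered gene, and the strain field of the Bet+HMD samples reads C57BL/6, C57BL/7 and C57BL/8. Nothing states that the samples of a group came from separate animals, so the p-values measure the spread between these samples. The aim of comparing HMD with Con was to see what the diet changed. That of comparing Bet+HMD with HMD was to see what betaine changed on top of it. Bet+HMD and Con differed in both diet and betaine, so their comparison does not separate the effects of diet and betaine.

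The libraries held between 16031464 and 18566712 reads. Xist was at most 0.045 FPKM and the Y-linked Ddx3y between 12.7 and 21.2 FPKM in all 9 samples, as in male tissue. All 7 hippocampus markers examined were detected, with a summed level of 174 to 233 FPKM. The Bet+HMD libraries stood apart from the other 6 before any gene of interest was considered. Long intergenic non-coding RNA took 1.40% to 1.45% of their reads, against 0.476% to 0.560% in the Con and HMD libraries, and ribosomal protein genes took 0.470% to 0.544% against 0.881% to 1.40%. The summed level of 6 RNAs that stay in the nucleus, Malat1, Neat1, Meg3, Rian, Mirg and Miat, was 562 to 595 FPKM in Bet+HMD, against 67.7 to 92.3 in HMD and 58.4 to 91.8 in Con. These 3 libraries occur only in the later of 2 deposited tables, so whatever else set them apart from the other 6 cannot be told apart from betaine.

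Both catalytic subunits end in the same stretch of coding sequence, which ends in the residue that is methylated. The last 30 coding bases of each gene on GRCm38, without the stop codon, are shown because they carry the target of the Lcmt1 and Ppme1 products. Capitals mark the 4 positions that differ, and the last 18 bases were identical.
Ppp2ca, chr11:52121942-52121971, + strand: gtCacTcgTcgTaccccagactacttcctg
Ppp2cb, chr8:33619162-33619191, + strand: gtGacCcgGcgCaccccagactacttcctg
Over the whole coding sequence of 927 bases, 81.7% of the bases of Ppp2ca and Ppp2cb were identical and the longest identical run was 25 bases. The coding sequences of Gsk3a and Gsk3b were 71.6% identical, with a longest run of 17 bases. No stretch of 100 bases was shared between the transcripts of either pair, so that reads of this length could be assigned to 1 of the 2 genes. Another kind of overlap was present. Of the exonic bases of Ppp2ca, 42.5% were also exonic in other genes, above all in the non-coding 9430098F02Rik on the opposite strand, and no gene overlapping Ppp2ca was above 0.118 FPKM. In Gsk3a the share was 28.3%, with the antisense 9130221H12Rik, which reached 1.90 FPKM. It was 4.07% in Lcmt1 (with Arhgap17), 2.42% in Ppme1 (with C2cd3) and 0 in the other 6 genes. No source used here says if reads were counted by strand, so reads in those stretches of Ppp2ca and Gsk3a are uncertain.

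Promoter sequences from RefSeq on GRCm38.p6 were given for 6 of the 10 genes (Gsk3a, Gsk3b, Ppp2ca, Ppp2r1a, Lcmt1 and Ppme1). The part before the RefSeq start site that lies outside annotated exons is shown for 3 of them. These 3 passed the test as lower in Bet+HMD in both comparisons below. The Lcmt1 window lies inside the gene as listed in the deposited data (chr7:123369784-123430358), and so does not precede its listed start. Capitals mark a GC box, searched as GGGCGG and, for the other strand, CCGCCC, with overlapping matches counted and no other motif searched.
Lcmt1, chr7:123377732-123377981, + strand: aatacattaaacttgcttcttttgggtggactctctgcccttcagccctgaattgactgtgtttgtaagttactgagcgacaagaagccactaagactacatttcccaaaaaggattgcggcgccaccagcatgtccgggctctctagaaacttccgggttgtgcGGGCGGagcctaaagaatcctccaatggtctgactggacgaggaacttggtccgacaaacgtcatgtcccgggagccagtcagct
Ppp2ca, chr11:52098574-52098680, + strand: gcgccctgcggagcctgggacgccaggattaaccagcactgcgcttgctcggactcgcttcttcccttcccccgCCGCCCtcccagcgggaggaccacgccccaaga
Ppp2r1a, chr17:20945204-20945310, + strand: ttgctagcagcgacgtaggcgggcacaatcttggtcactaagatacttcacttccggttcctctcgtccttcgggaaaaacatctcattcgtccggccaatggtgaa
The first listed window of 250 bases held a GC box in 5 of the 6 genes, and 32.7% of the 32851 windows of this length held one. The window without a box was that of Gsk3b. Whole windows held 3 boxes in Ppp2r1a, 2 in Ppp2ca and 1 in Lcmt1. The printed parts of Ppp2ca and Ppp2r1a are only 107 bases long and leave out 143 exonic bases. The box was present once in the printed part of Lcmt1 and of Ppp2ca and not in that of Ppp2r1a.

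The 10 genes spanned a wide range of levels in Con hippocampus in FPKM, a scale that divides reads by gene length and library size. Ppp2r1a was the highest with 154 ± 6.74 FPKM (mean ± SD, n = 3), followed by Cdk5r1 with 72.4 ± 5.77, Ppp2cb with 69.5 ± 2.102 and Ppp2ca with 55.9 ± 6.12. Mapt (49.5 ± 5.79), Ppme1 (47.3 ± 2.42) and Gsk3a (43.6 ± 2.52) came next, and Gsk3b (26.1 ± 5.70), Cdk5 (24.1 ± 4.90) and Lcmt1 (17.0 ± 0.608) were the lowest. The ranges of Cdk5r1 and Ppp2cb, of Ppp2ca and Mapt, of Mapt and Ppme1, of Mapt and Gsk3a, of Ppme1 and Gsk3a, and of Gsk3b and Cdk5 overlapped. The order within these pairs was therefore not resolved by the 3 samples. In Bet+HMD the order was different, with Mapt the second highest and above Ppp2cb, Cdk5r1 and Ppp2ca. Each value rested on at least 558 reads, the lowest number being that of Lcmt1 in Bet+HMD.

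**Figure D1:**
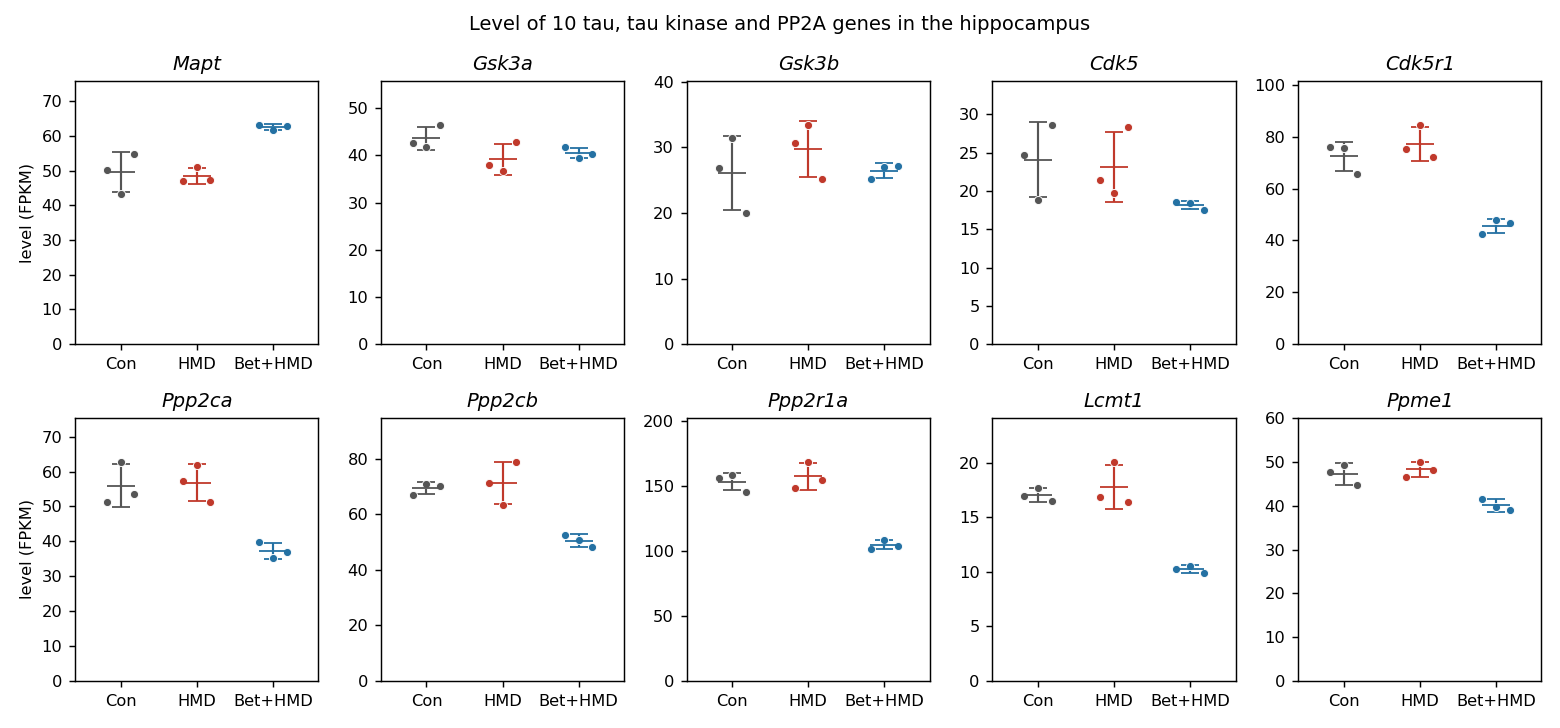
Level in FPKM (vertical axis, from 0) of each of the 10 genes in the 3 Con, 3 HMD and 3 Bet+HMD samples of the later table; points are samples, and bars give the mean and SD. Con and HMD points overlap in every panel, while the Bet+HMD points lie above both groups for Mapt and below both for Cdk5, Cdk5r1, Ppp2ca, Ppp2cb, Ppp2r1a, Lcmt1 and Ppme1.

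The high-methionine diet alone left no detectable change in any of the 10 transcripts. Mapt averaged 48.6 ± 5.33 FPKM in Con and 47.6 ± 1.59 in HMD (n = 3 each), and both GSK3 genes, Cdk5 and its activator, the PP2A subunits and both enzymes of PP2A methylation also had overlapping groups. By limma on log2(FPKM + 1), 0 of the 10 passed an adjusted p of 0.05, beside 0.0% of the 12989 genes tested. The smallest limma adjusted p among them was 0.98 and the smallest unadjusted p was 0.23. Over all genes, 592 had an unadjusted limma p below 0.05, and voom on the recovered reads also called 0 genes. None of the 10 had groups that did not overlap, which 9.37% of all tested genes had (4.71% with HMD higher and 4.66% with HMD lower).

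Mapt stood at 49.4, 42.9 and 53.5 FPKM in the Con samples and at 46.7, 49.5 and 46.8 in the HMD samples. The HMD values lay within the Con range. The difference in log2(FPKM + 1) was -0.02, with a 95% interval from -0.29 to 0.25.

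Gsk3b had 26.3, 31.2 and 19.5 FPKM in Con and 30.2, 32.8 and 24.7 in HMD. It had the largest positive difference of the 10 genes, 0.20 on the log2 scale (95% interval -0.24 to 0.63), but its lowest HMD value was below 2 of the 3 Con values. Gsk3a had 41.6, 40.9 and 45.3 FPKM in Con and 37.6, 36.0 and 41.9 in HMD, with a difference of -0.14 (-0.40 to 0.11), the most negative of the 10. In this gene 1 HMD sample was above 2 Con samples.

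For the kinase Cdk5 the difference was -0.06 (-0.50 to 0.38), and for its activator Cdk5r1 it was 0.10 (-0.18 to 0.37). Among the PP2A genes, the catalytic subunits differed by 0.02 (Ppp2ca, -0.27 to 0.32) and 0.04 (Ppp2cb, -0.23 to 0.31), and the scaffold Ppp2r1a by 0.04 (-0.21 to 0.29). The intervals of all 10 genes reached a size of at least 0.27 on 1 side, so that a change of this size lay within every interval on 1 side.

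The methyltransferase gene Lcmt1 had 16.7, 17.4 and 16.1 FPKM in Con and 16.6, 19.6 and 16.3 in HMD. The methylesterase gene Ppme1 had 47.0, 48.6 and 43.5 FPKM in Con and 46.3, 48.6 and 47.9 in HMD. Neither differed beyond the spread of its samples, with differences of 0.06 (-0.20 to 0.32) and 0.04 (-0.20 to 0.27) on the log2 scale. The signs of 7 of these small differences among the 10 genes turned when 1 sample was left out.

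The Bet+HMD libraries gave another picture: the tau transcript was higher and the transcripts of PP2A, its methyltransferase and the CDK5 activator were lower than in HMD. Mapt was 62.6 ± 0.851 FPKM against 48.5 ± 2.30, a fold of 1.29. Cdk5r1, Lcmt1, Ppp2ca, Ppp2r1a, Ppp2cb and Ppme1 were at 0.59, 0.58, 0.66, 0.67, 0.71 and 0.83 of their HMD means. Of the 10 genes, 7 passed (1 higher, 6 lower), beside 48.3% of the 13672 genes tested (22.8% higher and 25.5% lower). Groups did not overlap for 8 of the 10 (1 higher and 7 lower), and for 60.1% of all genes (28.3% higher and 31.8% lower). The median difference of the 10 was -0.40 on the log2 scale, beside -0.03 for all genes tested. With a minimum of 5 FPKM, which all 10 exceeded, the median of all genes was -0.14. Of the genes that passed with this minimum, 32.8% were higher, so better expressed genes leaned lower in general. In bulk tissue, fewer cells of a type and less RNA per cell cannot be told apart.

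Mapt had 63.2, 61.6 and 63.0 FPKM in Bet+HMD, 47.0, 51.2 and 47.4 in HMD and 50.2, 43.4 and 54.9 in Con of the same table. All 3 Bet+HMD samples were above the other 6. The difference from HMD was 0.36 (SE 0.0655, limma adjusted p 0.00379) and that from Con was 0.34 (SE 0.103, limma adjusted p 0.0381). The call against Con did not hold on leaving out some of the samples, although the difference stayed between 0.25 and 0.42: without 1 of the Bet+HMD samples the limma adjusted p was 0.111 to 0.123, and without the first Con sample it was 0.0745.

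The GSK3 genes did not pass in either comparison. Gsk3a had 41.7, 39.5 and 40.3 FPKM in Bet+HMD, between the values of HMD (38.0, 36.6 and 42.9) and Con (42.6, 41.7 and 46.4) for the most part. Its difference from HMD was 0.05 (95% interval -0.13 to 0.24). Scaled to TPM, which gives every library the same sum over genes, this difference was 0.25 with a limma adjusted p of 0.0393, and after quantile normalization it was 0.31 with 0.0125, so that its call depended on the scaling. Gsk3b had 25.1, 26.98 and 27.2 FPKM in Bet+HMD, 30.6, 33.4 and 25.1 in HMD and 26.8, 31.4 and 20.035 in Con. The groups overlapped in both comparisons, with differences of -0.16 (-0.41 to 0.10) from HMD and 0.04 (-0.33 to 0.41) from Con. Without the third HMD sample, the lowest of its group, the first of these was -0.27 with a limma adjusted p of 0.0272, and it was 0.04 on the TPM scale.

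Cdk5 and its activator differed in how clearly they moved. Cdk5r1 had 42.4, 47.8 and 46.6 FPKM in Bet+HMD against 75.1, 84.5 and 72.1 in HMD and 75.9, 75.5 and 65.7 in Con. All Bet+HMD samples were below the other 6. The differences were -0.75 (SE 0.0861, limma adjusted p 0.000568) from HMD and -0.65 (SE 0.0963, limma adjusted p 0.0026) from Con. After quantile normalization the difference from Con was -0.29 and did not pass (limma adjusted p 0.0698). Cdk5 had 18.6, 18.4 and 17.6 FPKM in Bet+HMD, 21.5, 19.7 and 28.3 in HMD and 24.7, 18.9 and 28.6 in Con. The groups did not overlap, but the HMD and Con samples were spread widely, and the differences of -0.32 and -0.37 did not pass (limma adjusted p 0.0788 and 0.0874). Without the second HMD sample the first of them was -0.42 with 0.0262, and without the second Con sample the other was -0.52 with 0.00751 (limma adjusted p).

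The core subunits of PP2A were all lower in Bet+HMD. Ppp2ca had 39.8, 35.1 and 37.0 FPKM in Bet+HMD, 57.3, 61.8 and 51.3 in HMD and 51.3, 62.9 and 53.7 in Con. Ppp2cb, the other catalytic subunit, had 52.7, 50.8 and 48.2 in Bet+HMD, 71.3, 63.6 and 79.0 in HMD and 67.1, 71.0 and 70.4 in Con. The scaffold Ppp2r1a had 101.7, 108.8 and 104.4 in Bet+HMD, 149.0, 169.1 and 155.2 in HMD and 156.4, 158.4 and 145.9 in Con. In each of these genes every Bet+HMD sample was below every sample of both other groups. Compared with HMD, the differences were -0.59 (Ppp2ca, SE 0.0902, limma adjusted p 0.00183), -0.48 (Ppp2cb, SE 0.0926, 0.00475) and -0.58 (Ppp2r1a, SE 0.0739, 0.000831). Compared with Con they were -0.57, -0.45 and -0.54, with limma adjusted p of 0.00618, 0.00505 and 0.0028. After quantile normalization, which forces the same distribution on every library, the calls of Ppp2cb and Ppp2r1a against HMD and of all 3 subunits against Con were lost, with values from -0.26 to -0.08 against Con. The counting limit given above for Ppp2ca applies to it in every group.

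Of the enzymes of PP2A methylation, Lcmt1 passed in both comparisons and Ppme1 in 1. Lcmt1 had 10.3, 10.6 and 9.9 FPKM in Bet+HMD, 16.8, 20.1 and 16.4 in HMD and 16.9, 17.7 and 16.5 in Con. No value of Bet+HMD came near those of the other groups. Its differences were -0.74 (SE 0.0909, limma adjusted p 0.000739) from HMD and -0.68 (SE 0.0749, limma adjusted p 0.000921) from Con. Ppme1 had 41.6, 39.7 and 38.9 FPKM in Bet+HMD, 46.7, 50.1 and 48.3 in HMD and 47.8, 49.4 and 44.6 in Con. The groups did not overlap, and the difference of -0.26 from HMD passed (SE 0.0659, limma adjusted p 0.0142), while that of -0.23 from Con did not (limma adjusted p 0.0582). The first of these was -0.07 (limma adjusted p 0.414) on the TPM scale, and it was lost without the second or the third Bet+HMD sample (limma adjusted p 0.0649 and 0.0616). The other one passed without the third Con sample (-0.27, limma adjusted p 0.0211).

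**Figure D2:**
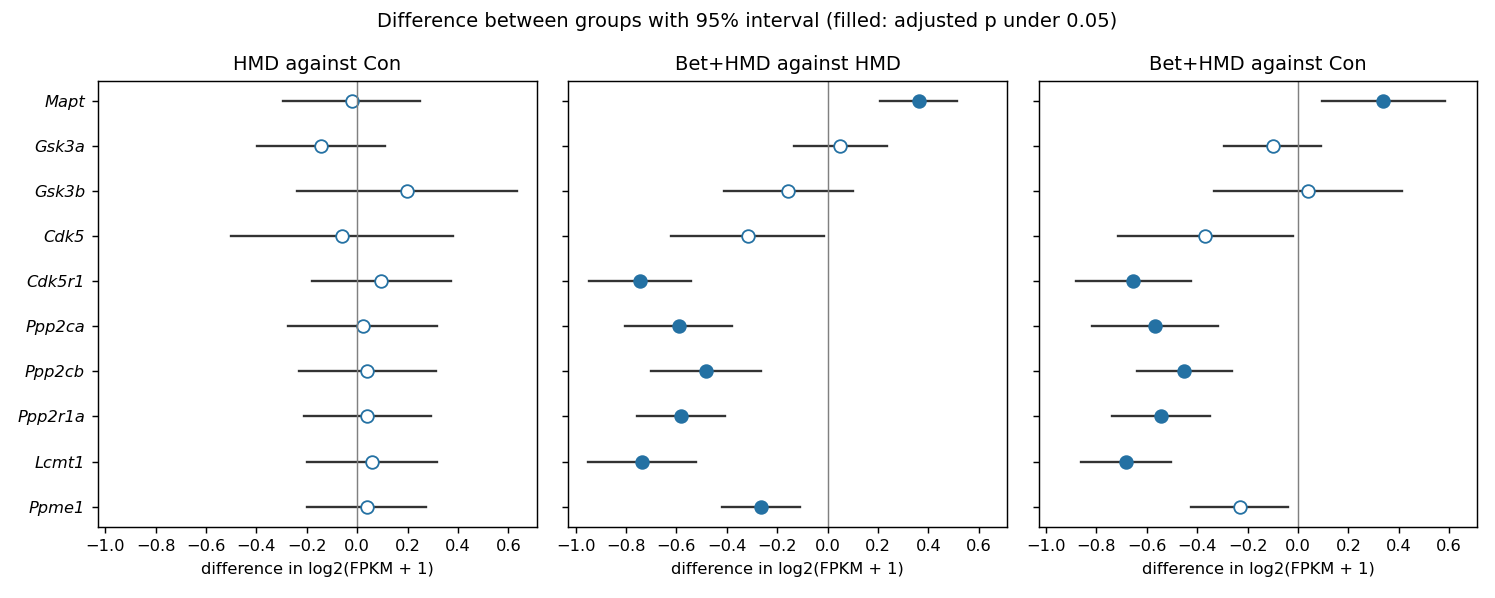
Difference between group means of log2(FPKM + 1) for each gene (horizontal axis) with its 95% interval, n = 3 samples a group, in the 3 comparisons; filled points had a limma adjusted p under 0.05. All intervals include 0 for HMD against Con, whereas Mapt lies to the right of 0 and 6 genes to the left with filled points for Bet+HMD against HMD.

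Compared with Con, 6 of the 10 genes passed in Bet+HMD (Mapt higher; Cdk5r1, Lcmt1, Ppp2ca, Ppp2cb and Ppp2r1a lower), beside 39.7% of the 13643 genes tested (19.4% higher and 20.4% lower). Groups did not overlap for 8 of the 10 (1 higher and 7 lower), and for 55.1% of all genes (26.1% higher and 29.0% lower). The median difference was -0.41, beside -0.04 for all genes. With a minimum of 5 FPKM the median of all genes was -0.13, and 33.1% of those that passed were higher. Both comparisons used the same Bet+HMD samples, so they do not support each other independently.

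The direction of these differences was set against the way the libraries are scaled. The reason was that the summed FPKM was 249135 to 258514 in the Bet+HMD libraries and 288438.5 to 307899 in the other 6. On the TPM scale the median difference of all genes became 0.16 against HMD and 0.17 against Con, and 69.5% and 73.5% of the genes that passed were higher, instead of 47.2% and 48.8% on the FPKM scale. On the TPM scale Mapt (0.57), Cdk5r1 (-0.56), Lcmt1 (-0.58), Ppp2ca (-0.40), Ppp2r1a (-0.39) and Ppp2cb (-0.29) still passed against HMD, and the same 6 passed against Con. Lcmt1 and Mapt passed under each of the 5 scalings against both groups.

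**Figure D3:**
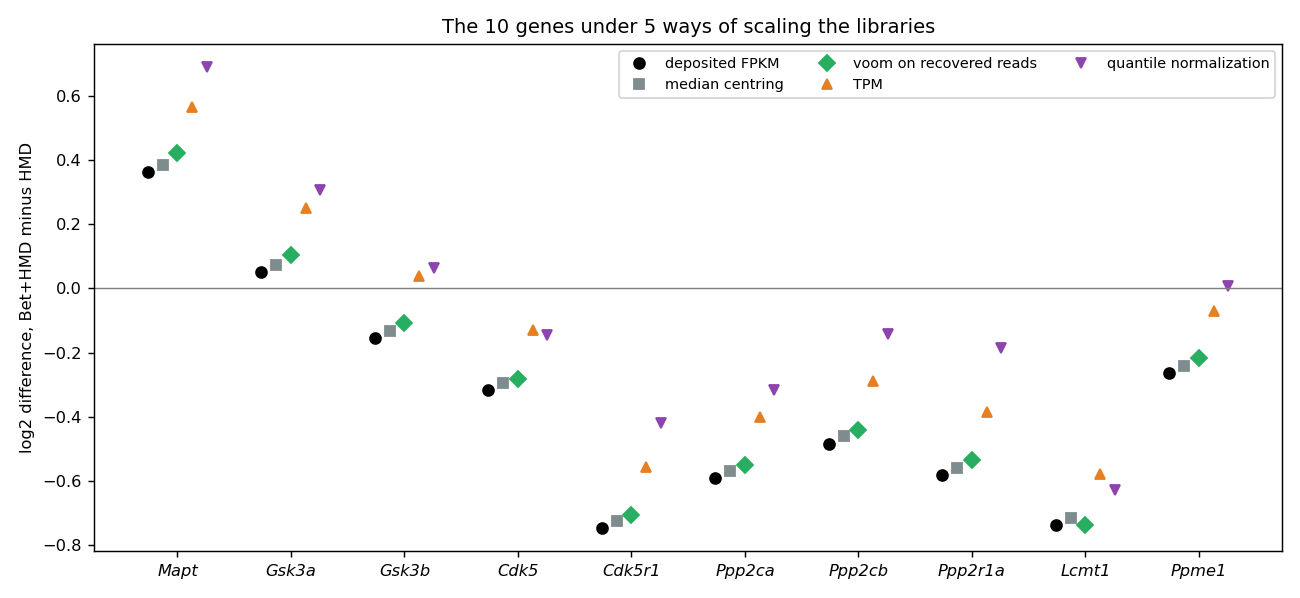
Log2 difference between Bet+HMD and HMD (vertical axis) of the 10 genes under 5 ways of scaling the libraries: deposited FPKM, FPKM centred on the median, voom on recovered reads, TPM and quantile normalization. Mapt stays above 0 (0.36 to 0.69) and Cdk5, Cdk5r1, Ppp2ca, Ppp2cb, Ppp2r1a and Lcmt1 stay below 0, while Gsk3b and Ppme1 cross it.

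Ratios of 2 genes within a library do not depend on a factor that all genes of the library share, as in FPKM, TPM or median centring. The ratio of Lcmt1 to Ppme1 was lower in every Bet+HMD sample than in every other sample. It was 0.247, 0.266 and 0.254 in Bet+HMD, 0.361, 0.401 and 0.340 in HMD and 0.354, 0.358 and 0.369 in Con. The geometric means were 0.255, 0.367 and 0.360, a difference of -0.52 on the log2 scale from HMD and of -0.50 from Con. By the two-sided exact permutation test p was 0.1 in both, the smallest value that 3 samples against 3 can give, and 0.75 after adjustment over the 15 ratios tested, so that the design cannot place this ratio past a threshold of 0.05.

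The other 4 ratios overlapped between groups in every comparison. The ratio of Ppp2ca to Ppp2cb was 0.692 to 0.767 in Bet+HMD, 0.649 to 0.972 in HMD and 0.763 to 0.886 in Con. That of Cdk5r1 to Cdk5 was 2.28 to 2.65 in Bet+HMD, 2.54 to 4.29 in HMD and 2.29 to 3.996 in Con. In both ratios some Bet+HMD samples lay below all Con samples and others within the Con range. Gsk3b to Gsk3a was 0.601 to 0.683 in Bet+HMD, 0.586 to 0.912 in HMD and 0.431 to 0.752 in Con. Mapt to Map2, another microtubule-associated protein of neurons, was 0.548 to 0.577 in Bet+HMD, 0.510 to 0.583 in HMD and 0.415 to 0.694 in Con, so that this ratio, too, overlapped between the groups.

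**Figure D4:**
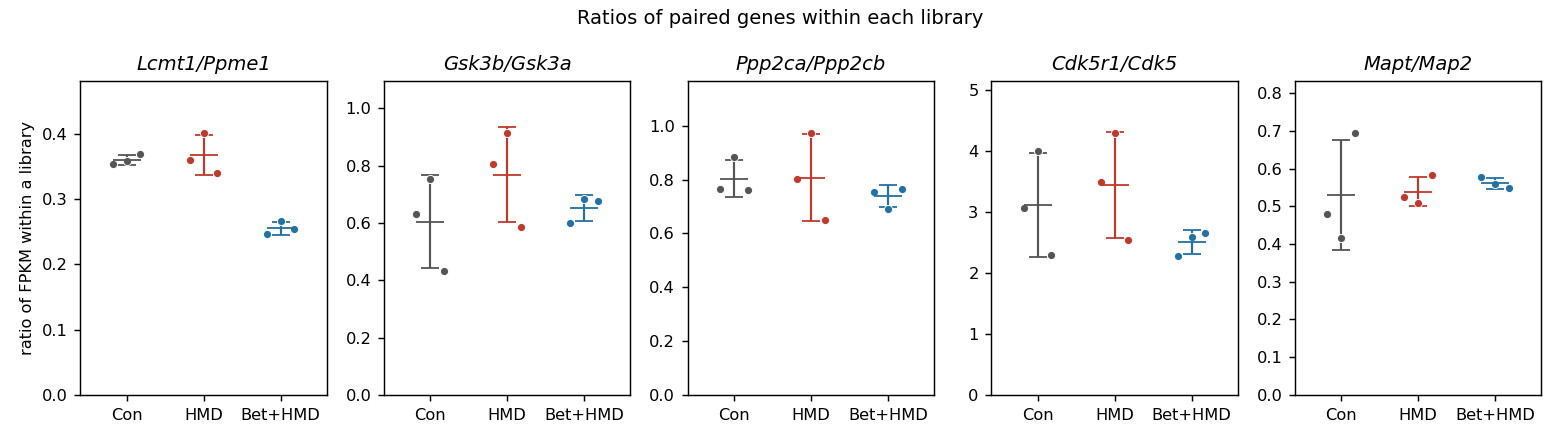
Ratio of the FPKM of 2 genes within each library (vertical axis, from 0) for 5 gene pairs in the Con, HMD and Bet+HMD samples of the later table, with the arithmetic mean and SD. The ratio of Lcmt1 to Ppme1 is 0.247 to 0.266 in Bet+HMD and 0.340 to 0.401 in the other samples, and the groups overlap in the other panels.

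Around the 10 genes, 94 further genes of tau biology in 8 lists were examined, of which 93 were found by name and up to 92 were expressed enough to be tested. HMD against Con gave 0 called genes. Bet+HMD against HMD gave 43 (12 higher and 31 lower, 46.7% of those tested), which is close to the 48.3% of all genes, and Bet+HMD against Con gave 33 (10 higher and 23 lower, 35.9%), beside 39.7%. The median difference of the lists together was -0.12 from HMD. As with the genes above, the counts by direction depended on the scaling, and the counts on the TPM scale against HMD are given beside each list. The list counts are to be read beside the shares of all genes tested. On the FPKM scale 22.8% were higher and 25.5% lower than in HMD, and 19.4% higher and 20.4% lower than in Con. On the TPM scale 6470 of 13672 genes passed against HMD, 69.5% of them higher. Against Con 5412 of 13643 passed on that scale, 73.5% of them higher.

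Of 16 other PP2A subunits, 0 were higher and 7 lower in Bet+HMD than in HMD, with a median of -0.21. On the TPM scale 1 was higher and 2 were lower, with a median of -0.05. The regulatory subunit Ppp2r5c went from 33.6 ± 1.24 to 22.3 ± 0.399 FPKM (-0.57, limma adjusted p 0.00051), and Ppp2r3c from 3.69 ± 0.141 to 2.48 ± 0.146 (-0.43, limma adjusted p 0.00465). Compared with Con, 2 were lower, Ppp2r2b (-0.46) and Ppp2r2d (-0.36), the second of which was lost without any 1 of the Bet+HMD samples (limma adjusted p 0.0857 to 0.151) and on the TPM scale. Of 7 PP2A activators and inhibitors tested, 0 were higher and 2 lower than in HMD: Ptpa, which encodes an activator of PP2A, by -0.31 (limma adjusted p 0.0175) and Tiprl, whose product binds the catalytic subunit, by -0.25 (limma adjusted p 0.0197). Ptpa was also lower than in Con (-0.38). That call was lost on the TPM scale (limma adjusted p 0.211) and without the first or the third Bet+HMD sample (0.065 and 0.0507). On the TPM scale neither Ptpa nor Tiprl passed against HMD, and 1 other gene of this list was higher and 0 lower than in HMD. Leaving out 1 Bet+HMD sample raised the limma adjusted p of Tiprl to between 0.061 and 0.084. That of Ptpa against HMD rose to 0.0759 without the first and 0.0519 without the third.

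Of 7 other tau phosphatases, 3 were lower than in HMD and 5 lower than in Con, and 0 were higher. Over all genes, 25.5% were lower than in HMD and 20.4% lower than in Con. On the TPM scale 1 was lower in each comparison and 0 were higher. Among those lower on the FPKM scale were Ppp1cb, a catalytic subunit gene of protein phosphatase 1 that went from 47.3 ± 7.80 to 30.4 ± 2.67 FPKM (-0.62, limma adjusted p 0.00594), and the calcineurin subunit Ppp3cb (-0.55, limma adjusted p 0.0143, and 0.0529 without the first Bet+HMD sample). Ppp3ca was 228 ± 27.7 FPKM in Con and 152 ± 3.86 in Bet+HMD (-0.57, limma adjusted p 0.00637).

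Of 27 other tau kinases, 2 were higher and 8 lower than in HMD, and the median difference was 0.01. This split turned with the scaling, since 8 were higher and 1 lower on the TPM scale and 10 higher and 1 lower after quantile normalization. Compared with Con it turned as well, from 1 higher and 3 lower to 7 higher and 0 lower on the TPM scale. Of all genes that passed on the TPM scale, 69.5% were higher against HMD and 73.5% against Con. After quantile normalization 47.1% of all genes that passed against HMD were higher. On the FPKM scale the tau-tubulin kinase Ttbk1 (0.43, limma adjusted p 0.00635) and Rps6kb1 (0.33, limma adjusted p 0.0199, and up to 0.0741 without 1 Bet+HMD sample) were higher. Sgk1, a kinase gene induced by glucocorticoids, was 50.1 ± 3.32 FPKM in HMD and 26.4 ± 0.506 in Bet+HMD (-0.90, limma adjusted p 0.000146). In the earlier table Sgk1 was 26.1 ± 2.77 FPKM in Con and 49.15 ± 3.66 in HMD, with groups that did not overlap, a difference of 0.89 and a limma adjusted p of 0.218. Compared with Con, Csnk1e was higher (0.40) and Csnk1d was lower (-0.37), both being casein kinase 1 genes. Both were lost without any 1 of the Bet+HMD samples (limma adjusted p 0.0538 to 0.12).

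Of 8 regulators of GSK3, 1 was higher and 3 were lower than in HMD, and 3 were higher and 3 lower on the TPM scale. The scaffold gene Axin2 went from 3.12 ± 0.576 to 5.55 ± 0.135 FPKM (0.68, limma adjusted p 0.00287). The GSK3-binding genes Frat1 (-0.84, limma adjusted p 0.002) and Frat2 (-0.58, limma adjusted p 0.00718) were lower, and these genes passed in the same direction against Con. Axin2 and Frat2 did not pass there without any 1 of the Bet+HMD samples (limma adjusted p 0.0599 to 0.0854). Among 5 genes of the CDK5 activators and the calpain system, which cleaves p35 to p25, only Capns1, the small calpain subunit, passed: it was 45.6 ± 10.7 FPKM in HMD and 28.5 ± 2.00 in Bet+HMD (-0.63, limma adjusted p 0.0179). Without the third Bet+HMD sample or the first HMD sample its limma adjusted p was 0.0641 and 0.0597, and on the TPM scale it was 0.0652, where 1 gene of this list was higher and 0 lower.

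Of 12 other microtubule genes, 5 were higher and 4 lower than in HMD, with a median of 0.23, and 6 were higher and 3 lower on the TPM scale. Compared with Con, 4 were higher and 4 lower, and 6 and 2 on the TPM scale. Map1a rose from 88.0 ± 4.96 to 137 ± 2.69 FPKM (0.64, limma adjusted p 0.000441) and Dcx, a gene of immature neurons, from 1.94 ± 0.482 to 4.37 ± 0.0244 (0.88, limma adjusted p 0.00135). Stmn2 fell from 68.4 ± 1.05 to 36.3 ± 0.288 (-0.90, limma adjusted p 7.69e-05) and the tubulin gene Tuba1a from 309 ± 11.1 to 187 ± 13.9 (-0.72, limma adjusted p 0.000465). Map7 was the gene of this list with the second largest rise against Con (0.82).

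Of 10 genes of tau turnover and modification, 4 were higher and 3 lower than in HMD, and 5 were higher and 2 lower on the TPM scale. Ogt, which encodes the O-GlcNAc transferase, went from 38.3 ± 6.32 to 66.4 ± 2.81 FPKM (0.79, limma adjusted p 0.0015), and the acetyltransferase gene Crebbp from 5.82 ± 0.350 to 8.89 ± 0.362 (0.54, limma adjusted p 0.00124). Fkbp5, a co-chaperone gene that glucocorticoids induce, was 11.4 ± 0.213 FPKM in HMD and 4.66 ± 0.180 in Bet+HMD (-1.13, limma adjusted p 5.44e-05). It was 7.17 ± 0.306 in Con and 11.3 ± 0.175 in HMD of the earlier table, with groups that did not overlap and a limma adjusted p of 0.339. In the later table Con had 7.32 ± 0.336 FPKM, and Bet+HMD was also lower than Con (-0.56, limma adjusted p 0.00208).

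**Figure D5:**
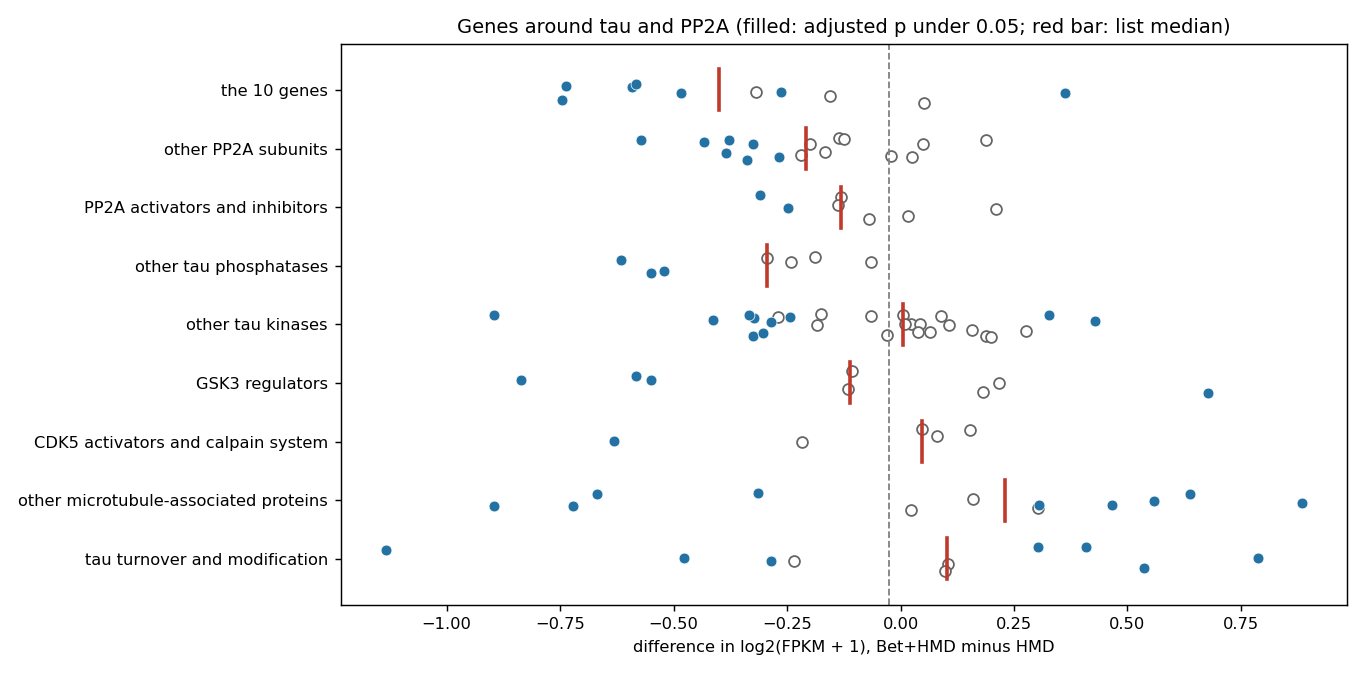
Difference in log2(FPKM + 1) between Bet+HMD and HMD (horizontal axis) of each tested gene in 8 lists around tau and PP2A and of the 10 genes; filled points had a limma adjusted p under 0.05, red bars are list medians, and the dashed line is the median of all genes tested (-0.03). Other PP2A subunits and other tau phosphatases have filled points only on the negative side on this FPKM scale, while microtubule-associated proteins and genes of tau turnover have them on both sides.

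Neuronal and other cell type markers were set beside these values. Of 6 neuron markers, 1 was higher (Rbfox3, 0.61) and 2 lower (Tubb3, -0.67, and Nefl, -0.51) in Bet+HMD than in HMD, and their summed level was 679 to 693 FPKM against 742 to 847 in HMD and 726 to 808 in Con. Astrocyte markers summed to 540 to 568 FPKM in Bet+HMD and 496 to 633 in HMD, with 2 of 6 lower, and oligodendrocyte markers to 732 to 739 and 752 to 1011, with 3 of 6 lower. On this FPKM scale the Bet+HMD samples lay within the HMD range for the astrocyte list and below it for the other 2, and the Con range of the oligodendrocyte list (671 to 1143) held them. The neuron list had 2 higher and 2 lower against HMD on the TPM scale, and 3 higher and 0 lower after quantile normalization. Among microglia markers 2 of 5 were lower than in HMD, and among endothelium markers 1 of 4, beside 25.5% of all genes. The microglia list had a median of 0.08. On the TPM scale 1 microglia marker was higher and 1 lower, and 1 endothelium marker was higher and 0 lower. Thalamus markers summed to 19.96 to 20.6 FPKM in Bet+HMD, 20.5 to 69.8 in HMD and 11.0 to 14.4 in Con. Of the 7 hippocampus markers, 0 were higher and 2 lower than in HMD, the CA1 genes Fibcd1 (-0.80) and Spink8 (-1.20), and 2 were higher and 2 lower on the TPM scale. Their summed level was 182 to 187 FPKM in Bet+HMD, within the HMD range of 175 to 214 and below the Con range of 215 to 233. Blood markers summed to 72.2 to 122 FPKM in Bet+HMD and 149 to 233 in HMD, and choroid plexus markers to 924 to 1197 and 859 to 2553. No marker was at 0 in all samples. For HMD against Con 0 markers passed. An unadjusted limma p below 0.05 was seen there in 4 of 7 hippocampus markers (median -0.14), 3 of 4 thalamus markers (1.32) and 3 of 5 blood markers (0.66). Each other marker list held 0 or 1 such gene. The part of cell composition, of dissection and of the higher nuclear RNA in the values of the 10 genes was not tested in any comparison.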

How the data were processed

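Hippocampal RNA of 9 samples was analysed. Per the study's methods, ribosomal RNA was depleted, and paired-end libraries were made with a kit named as one for stranded mRNA. Those methods describe no betaine group, so they do not say how the Bet+HMD libraries were made. The submitters' processing notes name HISAT2 2.1.0, featureCounts 1.5.0-p3 and mm10, and the study's methods give other versions. Expression was deposited by the authors as FPKM (per gene length and library size). Of the 2 tables, the earlier covers Con and HMD. The later adds Bet+HMD and repeats the other 6 samples with 0.312% to 5.49% fewer reads. Columns named COL were read as Con because no other group was left. The deposited gene length (another unit) was used unchanged. FPKM times gene length gave whole reads (within 0.01) for 100% of the values, so that depth was known: 16031464 to 18566712 reads a library. No library pair agreed within sampling noise.

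Values were analysed as log2(FPKM + 1), and fold changes on this scale understate those of low genes. Genes with a mean of at least 1 FPKM over the samples in a comparison were tested by limma 3.58.1 in R 4.3.3 (trend, two-sided, Benjamini-Hochberg over all genes tested, threshold 0.05), within 1 table: the earlier one for HMD against Con, the later one for both others. All 10 genes passed the filter in every comparison. The limma and voom fits were checked on simulated reads of independent genes with a fixed spread. The unequal spread of the real groups was not simulated. Ratios were tested by the two-sided exact permutation test over samples. Coordinates are on GRCm38 and were the same for the 10 genes in GENCODE M21. TPM, quantile normalization, median centring, voom on recovered reads, another pseudocount, filters, a fit of all 3 groups, a replicate block and leaving out samples were the alternatives. All 10 genes were named. From each list up to 2 genes with the largest rise and 2 with the largest fall among those that passed were named, or the 1 with the smallest p where none passed; Sgk1 and Fkbp5 in HMD against Con come from the last part, and the other 6 such genes are given in the closing section. Markers given with values were chosen after their values were seen. The 10 genes and all lists were chosen with earlier results of these data known. Oga was not matched by name. Some genes that this rule would name are counted in their lists but not reported here.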

Additional observations from a re-analysis of the deposited data

How the results depend on the processing

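For genes, 1036 of 1148 alternative values kept their direction and their side of the threshold, 84 lost a call, 9 gained one and 19 changed sign. No alternative called any of the 10 genes for HMD against Con. Fitting all 3 groups together called 9 genes there, 2 of them in the lists (Sgk1 and Fkbp5, limma adjusted p 0.0219 and 0.0412). Leaving out 1 sample called 0 to 2 genes, the 2 without the second Con sample. Signs turned for HMD against Con with Mapt at 0.0071 after quantile normalization, and on leaving out 1 sample the log2 differences ran from -0.11 to 0.048 for Mapt, -0.21 to 0.065 for Cdk5, -0.037 to 0.11 for Ppp2ca, -0.034 to 0.12 for Ppp2cb, -0.0026 to 0.075 for Ppp2r1a, -0.018 to 0.11 for Lcmt1 and -0.0068 to 0.073 for Ppme1. The log2 ratios ran from -0.044 to 0.078 (Lcmt1 to Ppme1), -0.16 to 0.13 (Ppp2ca to Ppp2cb), -0.042 to 0.37 (Cdk5r1 to Cdk5) and -0.098 to 0.27 (Mapt to Map2).

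For Bet+HMD, a minimum of 5 FPKM called 4166 genes against HMD and 3260 against Con, with fewer genes tested. TPM and quantile normalization turned Gsk3b against HMD (0.039 and 0.062) and Gsk3a against Con (0.12 and 0.19). Quantile normalization turned Ppme1 (0.0068 against HMD, 0.062 against Con) and called 2 of the 10 genes against Con. The cause was not tested. Without a minimum level the limma adjusted p of Mapt against Con was 0.0594. Leaving out 1 sample called 3302 to 6269 genes against Con, the counts being 3424, 3347 and 3302 without Bet+HMD sample 1, 2 and 3, and 14 to 37 list genes (15, 18 and 14 without those samples). The ratio of Ppp2ca to Ppp2cb against HMD ran from -0.26 to 0.031, and against Con those of Gsk3b to Gsk3a from -0.078 to 0.32 and of Mapt to Map2 from -0.039 to 0.33. Gsk3b against Con ran from -0.13 to 0.18. Voom called 6912 genes against HMD and 5644 against Con.

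The labels number the samples of each group 1 to 3. Deviations of same-numbered samples correlated at -0.0555, 0.346 and 0.319 for HMD and Con. They correlated at 0.0171, -0.102 and -0.151 for Bet+HMD and HMD and at -0.0489, -0.0902 and -0.176 for Bet+HMD and Con. The second and the third samples of HMD and Con thus deviated together in part, and the reason was not tested. The main fits did not pair the samples by number. With the replicate number as a block, 0, 5615 and 3924 genes were called for HMD against Con, Bet+HMD against HMD and Bet+HMD against Con, of the 10 genes 0, 6 and 5, and of the list genes 0, 34 and 18. Of the 10 genes, the block ended the calls of Ppme1 against HMD (limma adjusted p 0.0638) and Mapt against Con (0.0896). Between samples of a group the chi-square per degree of freedom of the recovered reads, 1 for counting error alone, was 3.10 to 4.47 in Bet+HMD and 12.8 to 46.4 in Con and HMD, so depth was not the only source of spread.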

Other observations

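Within Con and HMD, several of the 10 genes differed more between samples of a group than between the groups. These samples were singled out after their values were seen. In the later table Cdk5 was highest in the third Con and the third HMD sample (28.6 and 28.3 FPKM) and lowest in the second of each (18.9 and 19.7). Gsk3b had the opposite order, with 20.035 and 25.1 FPKM in the third samples and 31.4 and 33.4 in the second. The share of reads on ribosomal protein genes was 1.40% and 1.07% in the third samples and 0.920% and 0.881% in the second, so that it was higher where Cdk5 was higher. Its part in these differences was not tested. In Bet+HMD, Cdk5 ranged only from 17.6 to 18.6 FPKM and Gsk3b from 25.1 to 27.2.

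Over the 6 Con and HMD samples of the earlier table, the genes whose log2 level followed Mapt most closely were Fam184a (Pearson r 0.992), Rrp36 (0.986) and Pmm2 (0.984). With 6 samples and 12989 genes, such values describe these libraries and are no test. Among the lists, the genes with the smallest p for HMD against Con, beside Sgk1 and Fkbp5, were Akt2 (-0.30), Capn1 (0.14), Ppp2r5a (-0.22), Anp32a (-0.21), Ppp1ca (-0.31) and Map7 (0.26) on the log2 scale, each with a limma adjusted p of 0.98.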
